A study of Mus musculus with 10 samples.

Results

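The protocadherin gamma cluster is a gene array on mouse chromosome 18, and its CpG methylation was described here in 2 fractions of spermatogonia. Its members were all cytosines of CpGs between positions 37650001 and 37850000 (build mm10) that had at least 5 reads in both libraries, on either strand. There were 1492 such cytosines, in 948 CpGs, of 6745376 cytosines listed in all. The choice used position and read number only, not the methylation level.

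The cells were spermatogonia from testes of postnatal day 6 mouse pups of the line LT-11B6 (C57BL/6), which carries the Id4-eGfp transgene. ID4-EGFP+ cells of both fractions carried this reporter, which marks undifferentiated spermatogonia through the Id4 gene's activity. TSPAN8-high cells were those stained most strongly by an antibody against TSPAN8, a cell surface tetraspanin, and TSPAN8-low cells were those stained most weakly. DNA was pooled from 5 sorts per fraction, and 300 ng of it was cut with BfaI, MseI and MspI for reduced-representation bisulfite sequencing (RRBS), which reads methylation at CpGs near the cut sites. This gave 1 library per fraction, so every test below compares 2 libraries and carries no replicate error. The 8 chromatin samples of the series were not analysed here.

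The clustered protocadherins are cell adhesion proteins best known from neurons, where each cell makes its own combination of isoforms. Each variable exon has its own promoter and encodes the extracellular part, the membrane-spanning part and the start of the cytoplasmic part, and is spliced to a shared constant region. In the nervous system the a-type and b-type isoforms are chosen at random with the help of promoter methylation, CTCF and cohesin, whereas the C-type isoforms (Pcdhgc3, Pcdhgc4 and Pcdhgc5) are switched on in a regular way.

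The interval holds 22 Pcdhg genes, 12 of the Pcdhga family, 7 of the Pcdhgb family and 3 of the Pcdhgc family. Of these, 21 are annotated as protein coding and Pcdhgb8 as a transcribed pseudogene. Their starts run from 37661775 (Pcdhga1) to 37819546 (Pcdhgc5), and the genes share an end at 37841873. The gene table used here gives no exons and no strand for this chromosome. Each promoter was therefore taken as the window from 500 bp before to 99 bp after the annotated start, and each variable exon as the window from 100 to 2500 bp after it. The constant segment was taken as everything from the last such window to the shared end, 37822047 to 37841873, and thus holds the constant exons and the introns between them. For all other genes, "exon window" means the same fixed stretch after the start, which need not be an exon.

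In the interval the libraries held 20919 read counts (TSPAN8-high) and 19678 read counts (TSPAN8-low), with medians of 12 and 11 reads per cytosine, against a median of 10 in both libraries over the whole table. No methylated read among 12 still allows a level of up to 25%, so single cytosines were imprecise and most statements rest on windows. The promoter of the germ cell gene Dazl, which is methylated in somatic cells, was at 0.995% in TSPAN8-high cells and 1.30% in TSPAN8-low. The promoter of Mest, an imprinted gene that is about evenly methylated and unmethylated in somatic cells, was at 3.07% in TSPAN8-high cells and at 0 of 252 reads in TSPAN8-low, which allows up to 1.19%. Ddx4 (15 and 21 reads) had no methylated read, which allows up to 20% in TSPAN8-high cells and 14.3% in TSPAN8-low. Peg10 had none of 119 reads in TSPAN8-high (up to 2.52%) and 1.39% in TSPAN8-low. Snrpn and Peg3 were not tested.

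Most cytosines read in the cluster had low levels in both fractions, unlike those of the whole table. Of the 1492, 217 lay in promoter windows and 766 in exon windows. The levels pooled here therefore weigh those windows more than the sequence between them, much of which was methylated. Pooled over reads, its level was 24.6% in TSPAN8-high (95% exact Clopper-Pearson interval 24.1 to 25.2), against 24.9% in TSPAN8-low (24.3 to 25.5). The whole table was at 72.4% in TSPAN8-high cells and 73.2% in TSPAN8-low. Of the cluster's cytosines, 69.2% in TSPAN8-high cells and 68.8% in TSPAN8-low lay below a level of 20%, against 19.3% in each library over the table. No methylated read was seen in either library at 651 of the 1492 cytosines.

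**Figure D1:**
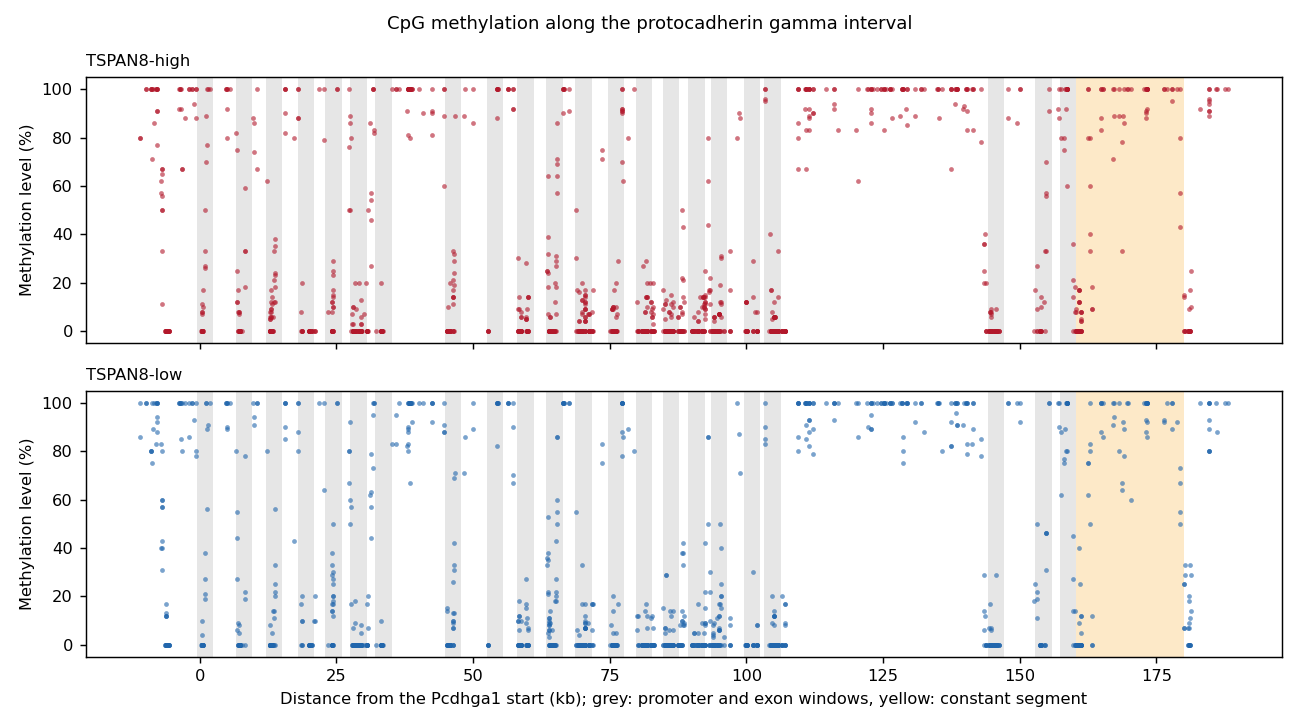
Methylation level in percent of each of the 1492 cytosines (points) against the distance in kb from the start of Pcdhga1, TSPAN8-high above and TSPAN8-low below. Grey bands are the promoter and exon windows of the 22 genes and the yellow band is the constant segment. Points near 0 gather in the grey bands, while most of the spacer before Pcdhgc3 lies near 100. The constant segment holds both, with 44.0% of its cytosines above a level of 80% in TSPAN8-high cells and 40.7% in TSPAN8-low. Its share below 20% is 44.0% in TSPAN8-high cells and 41.8% in TSPAN8-low.

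Promoters and variable exons stood far below the constant segment in both libraries. Promoters, with 217 cytosines, were at 8.06% in TSPAN8-high cells and 8.83% in TSPAN8-low. Variable exons, with 766 cytosines, were at 9.32% in TSPAN8-high cells and 7.74% in TSPAN8-low. The constant segment, with 91 cytosines, was at 50.4% in TSPAN8-high cells and 53.7% in TSPAN8-low. The remaining 418 cytosines, between the exon windows and outside the array, were at 62.1% in TSPAN8-high cells and 60.2% in TSPAN8-low. Exact intervals of the promoter and exon levels in a library lay below 10%, and those of the constant segment and the remainder lay above 47.6%.

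At equal density of listed CpGs the cluster was below the table except where CpGs were densest. Where 3 to 9 CpGs were listed within 200 bp, the cluster was at 15.5% in TSPAN8-high cells and 15.2% in TSPAN8-low, against 65.0% and 65.8% for the table. Where only 1 to 2 CpGs were listed, the cluster was at 68.5% in TSPAN8-high cells and 65.1% in TSPAN8-low, against 89.1% and 89.4% for the table. At 10 or more, the cluster stood at 2.18% in TSPAN8-high cells and 2.33% in TSPAN8-low, beside 2.03% and 2.33% for the table. These densities count listed CpGs, which depend on the cut sites.

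Promoters were read at 20 of the 22 genes, with no listed CpG at Pcdhga1 and Pcdhgb7, and 16 of the 20 were below 20% in both libraries. Among the 12 with at least 3 CpGs, Pcdhga11 had the lowest level in TSPAN8-high, with 0.591% there and 1.62% in TSPAN8-low. Pcdhgc3, an isoform that promotes dendrite branching in mouse cortical neurons, was similarly low, with 0.985% in TSPAN8-high cells and 0.847% in TSPAN8-low. Pcdhgb2, Pcdhgb4, Pcdhga6, Pcdhga10, Pcdhgb6 and Pcdhgb8 lay between 0 and 5.06% in either library. Intermediate levels were seen at Pcdhga8, with 16.9% in TSPAN8-high cells and 18.0% in TSPAN8-low, at Pcdhga2, with 13.7% and 12.7%, and at Pcdhgb5, with 9.90% and 7.69%. Pcdhgc4, the isoform that mouse interneurons need to survive, had 14.3% in TSPAN8-high (95% interval 6.38 to 26.2), against 27.3% in TSPAN8-low (17.0 to 39.6), and these intervals overlapped.

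The methylated promoter windows were all read at 1 or 2 CpGs. Pcdhga12 had 97.2% in TSPAN8-high cells and 89.2% in TSPAN8-low, at 4 cytosines that lie 321 to 385 bp before its start, while its exon window was at 2.72% in TSPAN8-high cells and 2.96% in TSPAN8-low. Pcdhgc5 had 90% of 10 reads in TSPAN8-high cells and 75.0% of 16 reads in TSPAN8-low. Pcdhga3 had 62.5% of 8 reads in TSPAN8-high cells and 80% of 5 reads in TSPAN8-low, at 1 CpG. Of the other 5 windows with fewer than 3 CpGs, Pcdhga7 had 0 of 42 reads in TSPAN8-high (up to 7.14%) and 0 of 85 in TSPAN8-low (up to 3.53%). Pcdhgb1, Pcdhga4, Pcdhga5 and Pcdhga9 lay between 0 and 8.33%.

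**Figure D2:**
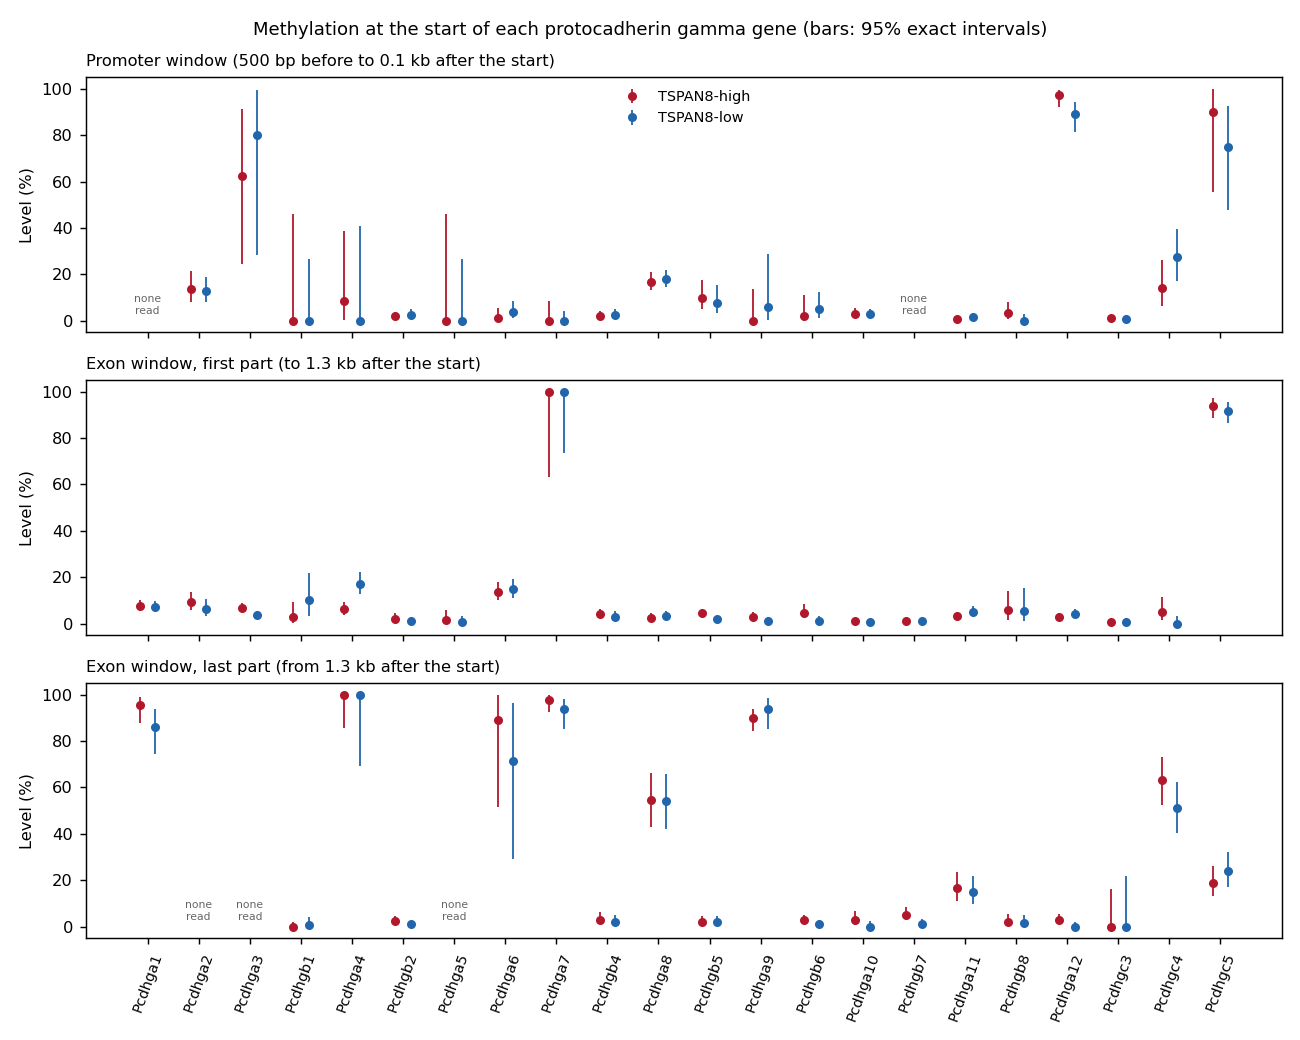
Level in percent of pooled reads in the promoter window (top), the first part (middle) and the last part (bottom) of the exon window for the 22 genes in their order along the array. Red points are TSPAN8-high, blue points TSPAN8-low, and bars are 95% exact intervals (counting error only). In the last part, 6 Pcdhga genes lie above 50% in both libraries while all 7 Pcdhgb genes lie below 10%.

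Variable exons were read at all 22 genes, each with at least 3 CpGs, and 17 were below 20% in both libraries. The 7 Pcdhgb windows were evenly low, between 0.735% and 3.98% in TSPAN8-high cells and between 0.930% and 3.24% in TSPAN8-low. The 12 Pcdhga windows ran from 1.48% (Pcdhga10) to 98.0% (Pcdhga7) in TSPAN8-high cells and from 0.633% (Pcdhga5) to 94.8% (Pcdhga7) in TSPAN8-low. Pcdhga2, Pcdhga3, Pcdhga8 and Pcdhga11 lay between 6.57% and 9.87% in TSPAN8-high, and between 3.57% and 10.5% in TSPAN8-low. Pcdhga1 stood at 17.9% in TSPAN8-high cells and 15.3% in TSPAN8-low, and Pcdhga6 at 15.8% and 16.0%.

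The spread among Pcdhga exons lay mainly in their last part, from 1300 bp on. Before it, pooled Pcdhga exons were at 5.00% in TSPAN8-high cells and 5.15% in TSPAN8-low. In it they were at 43.3% in TSPAN8-high cells and 32.9% in TSPAN8-low, and 6 of the 9 genes read there were above 50% in both libraries. These were Pcdhga1 (95.7% in TSPAN8-high, 86.0% in TSPAN8-low), Pcdhga4 (100% and 100%, 2 CpGs), Pcdhga6 (88.9% and 71.4%, 1 CpG), Pcdhga7 (97.8% and 93.8%), Pcdhga8 (54.7% and 54.2%) and Pcdhga9 (89.8% and 93.9%). The remaining 3 were the last Pcdhga genes of the array. Pcdhga10 was at 2.70% in TSPAN8-high cells and 0 of 144 reads in TSPAN8-low (up to 2.08%), Pcdhga11 at 16.7% and 15.03%, and Pcdhga12 at 2.62% and 0 of 182 reads (up to 1.65%).

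The Pcdhgb exons stayed low to the end of the window. Their last part was at 2.54% in TSPAN8-high cells and 1.30% in TSPAN8-low, and their first part at 3.64% and 2.02%. All 7 Pcdhgb genes were below 10% in the last part in both libraries. These families were compared after their values were seen, and the contrast has no test. Position along the array goes with it in part, since the low Pcdhga genes lie at the end where Pcdhgb exons are frequent. The number of listed CpGs goes with it too. The last part held 1 to 5 CpGs in the methylated Pcdhga genes and 6 to 20 in the Pcdhgb genes. Pcdhga10 and Pcdhga11, low in that part, held 4 and 5. The share of family, position and CpG number was not tested.

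Pcdhga7 departed most from its neighbours. Its 4 promoter cytosines, 247 to 408 bp before the start, had no methylated read, whereas its 7 exon cytosines, 1299 to 1580 bp after it, had levels of 88% to 100% in TSPAN8-high cells and 82% to 100% in TSPAN8-low. Nothing was read between these groups, so the point where the level changed was not seen.

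The 3 Pcdhgc genes each had a different pattern. Pcdhgc3 was unmethylated through its exon window, at 0.733% in TSPAN8-high cells and 0.857% in TSPAN8-low. In Pcdhgc4 the first part of the exon window was at 5.15% in TSPAN8-high cells and 0 of 111 reads in TSPAN8-low (up to 2.70%), and the last part at 63.0% and 51.2%. In Pcdhgc5 the order was turned round, with 93.8% in TSPAN8-high cells and 91.9% in TSPAN8-low in the first part and 18.8% and 24.1% in the last part. The unmethylated stretch of Pcdhgc5 began 2022 bp after its annotated start and ended at 3501 bp, inside the constant segment, with 25 CpGs at 3.26% in TSPAN8-high cells and 3.13% in TSPAN8-low.

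Taking every run of at least 5 neighbouring CpGs below 20% in both libraries, with steps of at most 1000 bp, the interval held 32 low stretches with 941 cytosines (63.1% of all). They spanned 57 to 3428 bp, with a median of 717.5 bp. A promoter or exon window was touched by 29 of them, and 20 of the 22 genes had at least 1, the exceptions being Pcdhga4 and Pcdhga7. The longest, of 3428 bp, began 513 bp before the start of Pcdhga10, and the next ones were those of Pcdhgb5 (2908 bp) and Pcdhgb7 (2407 bp). All 3 lie in the run of genes from Pcdhgb5 to Pcdhgb7. Most CpGs read between the exon windows of this run were low as well. The exception was the spacer after Pcdhga9, at 91.7% in TSPAN8-high cells and 84.2% in TSPAN8-low (2 CpGs).

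The 3 low stretches outside any window lay before, within and after the array. The first ended 5609 bp before Pcdhga1, with 0 of 284 reads methylated in TSPAN8-high (up to 1.06%) and 2.61% in TSPAN8-low. The second lay 2712 to 3274 bp after the start of Pcdhga12, with 0 of 93 reads in TSPAN8-high (up to 3.23%) and 2.80% in TSPAN8-low. The third began 581 bp after the shared end, with 0.641% in TSPAN8-high cells and 4.82% in TSPAN8-low.

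Spacers, the sequence between an exon window and the next promoter, were read at 19 of 21 places. Both libraries were above 60% in 14 of them and above 80% in 10. The 4 below 25% in both followed Pcdhgb5, Pcdhgb6, Pcdhga10 and Pcdhgb7. The spacer after Pcdhgb6 was lowest, at 3.41% in TSPAN8-high cells and 0.794% in TSPAN8-low. The long spacer that separates Pcdhga12 from the C-type genes was at 82.4% in TSPAN8-high cells and 76.4% in TSPAN8-low, low at both ends and methylated in between. From 1 kb after the Pcdhga12 exon window to 1 kb before the Pcdhgc3 promoter, over 35829 bp and 104 cytosines, its level was 94.94% in TSPAN8-high cells and 94.99% in TSPAN8-low. Of the 34 tiles of 1 kb inside it, the 27 that were read were at no less than 78.6% in TSPAN8-high and 80% in TSPAN8-low.

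In the constant segment most low reads lay at its start, which the Pcdhgc5 stretch occupied. The 1-kb tile that holds the shared end was at 26.9% in TSPAN8-high cells and 37.2% in TSPAN8-low. That tile also holds cytosines beyond the segment, so its level is not that of the segment alone. Between them the tile from 37825001, read at 3 cytosines, was low too, with 12.1% of 33 reads in TSPAN8-high cells and 4.17% of 24 reads in TSPAN8-low. The lncRNA gene Gm29994, annotated inside the segment, was at 91.9% in TSPAN8-high cells and 93.8% in TSPAN8-low. Beyond the array, the measured portion of Diaph1, a formin gene, was at 95.02% in TSPAN8-high cells and 94.08% in TSPAN8-low.

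Taken in bins of 250 bp, pooled Pcdhg levels were low from 250 bp before the start to 1249 bp after it. None of these bins exceeded 12.4% in either library. At 1250 to 1499 bp the levels were 16.7% in TSPAN8-high cells and 13.7% in TSPAN8-low, and beyond that they varied between bins. In the 250 bp that follow the start, Pcdhg genes pooled to 1.69% in TSPAN8-high cells and 1.31% in TSPAN8-low. At the same place, Pcdha genes had 2.31% in TSPAN8-high cells and 1.79% in TSPAN8-low, Pcdhb genes 13.0% and 24.1%, and other protein-coding genes 2.45% and 2.45%. Between 1750 and 1999 bp after the start, Pcdhg genes were at 3.06% in TSPAN8-high cells and 2.44% in TSPAN8-low, while other protein-coding genes had climbed to 39.0% and 40.1%. That bin held 8 Pcdhg genes, whose unweighted mean was 15.8% in TSPAN8-high cells and 13.1% in TSPAN8-low, against 64.7% and 64.9% for other genes. In the next bin, 2000 to 2249 bp, the pooled levels no longer stood apart, with 46.8% in TSPAN8-high cells and 34.9% in TSPAN8-low for Pcdhg genes and 45.0% and 46.2% for other genes. Unweighted means still did, with 37.2% in TSPAN8-high cells and 38.8% in TSPAN8-low over 6 Pcdhg genes, against 70.3% and 70.6%. In the 250 bp before the promoter window the order was reversed, with 62.6% and 56.4% for Pcdhg genes and 13.8% and 13.9% for other genes.

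**Figure D3:**
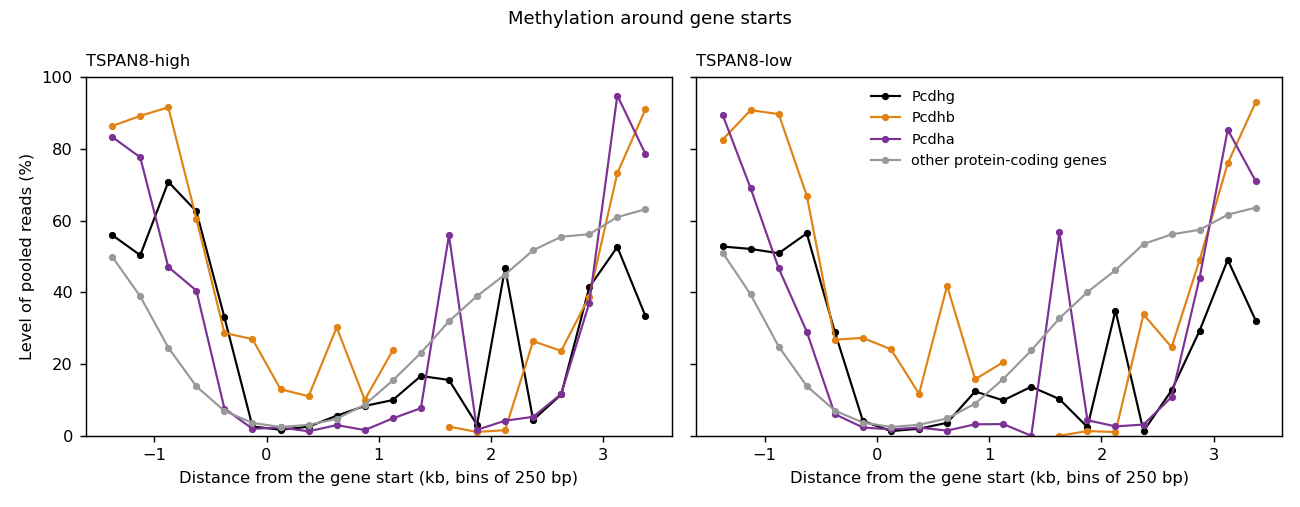
Level of pooled reads in percent against the distance from the gene start in bins of 250 bp, for Pcdhg (black), Pcdhb (orange), Pcdha (purple) and other protein-coding genes (grey), with TSPAN8-high on the left and TSPAN8-low on the right. The Pcdhg line falls later before the start than the grey line and lies below it in most bins from 1500 bp after it, except for a peak at 2000 to 2249 bp from 6 genes (46.8% in TSPAN8-high cells and 34.9% in TSPAN8-low, beside 45.0% and 46.2% on the grey line).

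A variable exon was not in general more methylated than its own promoter. Among the 12 genes with at least 3 CpGs in both windows the exon was the higher in 6 in TSPAN8-high cells and in 4 in TSPAN8-low. Over all 9246 genes with both windows, the exon window was the higher in 83.7% in TSPAN8-high cells and 83.8% in TSPAN8-low. In those genes this fixed window may hold introns, so the comparison is of distance from the start and not of exons. Pooled over all cytosines, exon minus promoter was 1.25 percentage points in TSPAN8-high (95% Newcombe interval 0.141 to 2.30) and -1.08 in TSPAN8-low (-2.24 to 0.00240). Its sign in TSPAN8-high turned under 4 other settings, for example to -1.96 with at least 10 reads per cytosine, and its sign in TSPAN8-low under 2, to 1.42 as an unweighted mean and 3.68 with a promoter from 250 bp before the start.

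The other protocadherin arrays give a scale for these values. Pcdhb exon windows with at least 3 CpGs pooled to 11.1% in TSPAN8-high cells and 13.8% in TSPAN8-low, and Pcdhb promoters to 20.1% and 19.7%. Pcdha exon windows were at 3.68% in TSPAN8-high cells and 3.30% in TSPAN8-low, and Pcdha promoters at 2.41% and 2.44%. Pcdhg promoters with at least 3 CpGs were at 4.71% in TSPAN8-high cells and 5.87% in TSPAN8-low. The share of genes below 20% in both libraries was 77.3% for Pcdhg, 70.6% for Pcdhb and 92.9% for Pcdha exon windows, and 57.2% for those of other protein-coding genes.

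Between the fractions, no cytosine of the cluster passed the test, and neither did any promoter. The question of the comparison was whether cells sorted by TSPAN8 differ in methylation here. A call for a cytosine needed 20 percentage points of difference and, in a two-sided Fisher's exact test on its reads, a p below 0.05 after Benjamini-Hochberg adjustment over the table. None of 1492 was called, where 0.00111% of all cytosines were. At an unadjusted p below 0.05 there were 19 (1.27%), against 1.46% of all cytosines. In the authors' deposited table, 18 cytosines had a p below 0.05, or 1.21% against 1.45% of all. Of these, 10 were higher in TSPAN8-high cells and 8 lower, with 12 in variable exons and 0 in promoters. The other strand of the CpG was measured at 16 of them, leaned the same way at 5 and was equal in both libraries at 5. It was never itself below 0.05 in the authors' deposited table. By Fisher's exact test on the reads, 1 CpG had both strands below an unadjusted 0.05. It lies 2556 bp after the start of Pcdhgb7, with 15% of 41 reads in TSPAN8-high against 0% of 44 reads in TSPAN8-low on the plus strand (exact p 0.0103) and 7% of 57 reads against 0% of 72 on the minus strand (exact p 0.0359). The p of that minus strand in the authors' deposited table is 1. The lowest p in the authors' deposited table, 0.002554, was 3016 bp after the start of Pcdhga10, with 50% of 8 reads in TSPAN8-high cells and 0% of 22 reads in TSPAN8-low, and its other strand had 0% of 30 reads and 10% of 20 reads.

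The strands gave a measure of the spread within a library. At the 544 CpGs read on both strands, the levels of the strands within a library differed by a mean of 6.05 percentage points in TSPAN8-high cells and 5.42 in TSPAN8-low. The libraries differed from each other by a mean of 5.88 points on the plus strand and 5.28 on the minus strand. On average a single CpG thus differed about as much between strands of 1 library as between libraries. At the 385 CpGs with at least 1 methylated read, the strands differed by 8.55 points in TSPAN8-high cells and 7.66 in TSPAN8-low. The libraries differed there by 8.31 and 7.46 on the plus and minus strands. The whole table was alike, with 6.93 and 6.71 points between strands and 6.73 and 6.72 between libraries, so this is no trait of the cluster.

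For promoter windows with 3 CpGs or more the minimum was 10 percentage points, with the same limit on the adjusted p. None of 12 was called, against 0.327% of all promoter windows tested, and at an unadjusted p below 0.05 there were also 0, against 11.7%. The lowest adjusted p was 0.621 (Fisher's exact test, Benjamini-Hochberg adjustment). Pcdhgc4 had the largest difference among the 12, -13.0 points (Newcombe interval -26.6 to 1.75), with the level lower in TSPAN8-high at each of its 5 cytosines. Windows with fewer CpGs reached -17.5 points at Pcdhga3 (-53.4 to 31.2), 15 at Pcdhgc5 (-18.8 to 40.8), 8.33 at Pcdhga4 (-27.8 to 35.4) and 8.01 at Pcdhga12 (1.12 to 15.7), and were not tested. Only at Pcdhga12 among the 20 promoters read did the interval leave out 0.

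Among the exon windows, Pcdhga9 alone was called, 1 of 22, against 1.41% of all exon windows, and 6 had an unadjusted p below 0.05 (27.3%, against 15.9%). Pooled, the Pcdhga9 window was at 25.04% of 699 reads in TSPAN8-high cells and 12.7% of 537 reads in TSPAN8-low, a difference of 12.4 points (8.02 to 16.6, adjusted p 4.28e-05 by Fisher's exact test with Benjamini-Hochberg adjustment). The same place held the single called tile (37738001 to 37739000) of 103 tiles of 1 kb, against 0.267% of all tiles, with 71.0% in TSPAN8-high cells and 38.7% in TSPAN8-low (adjusted p 0.00810, same test). Neither held when each cytosine was compared with itself in an exact test stratified by cytosine, which was chosen after the data were seen. The within-cytosine difference was 0.379 points for the exon (adjusted p 1) and -1.13 points for the tile (adjusted p 1).

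The cytosines of Pcdhga9 show where the pooled difference came from. Its first part was at 3.07% in TSPAN8-high cells and 1.27% in TSPAN8-low, and its last part at 89.8% and 93.9%. The last part drew 177 of the window's reads in TSPAN8-high but 66 in TSPAN8-low, so that the methylated cytosines weighed more in TSPAN8-high. The cytosine 2050 bp after the start, for example, was at 100% in both libraries, of 26 reads in TSPAN8-high cells and 6 reads in TSPAN8-low. Of the 9 cytosines of the last part, 7 were lower in TSPAN8-high, 1 was higher and 1 was equal.

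**Figure D4:**
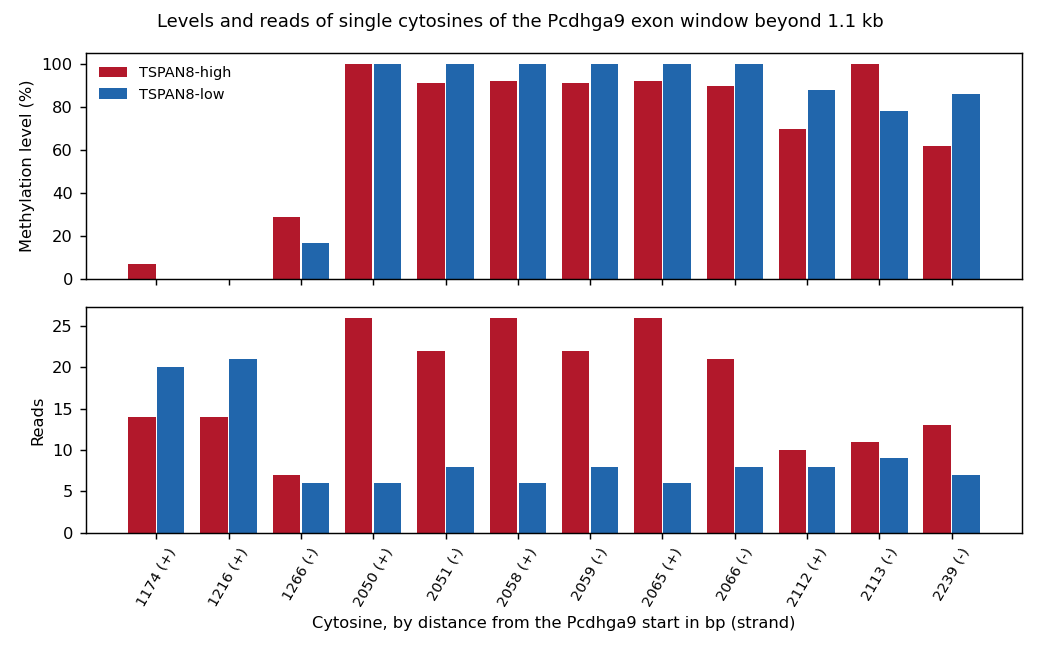
Level in percent (top) and number of reads (bottom) of the 12 cytosines of the Pcdhga9 exon window more than 1.1 kb after the gene start, by distance and strand, with TSPAN8-high (red) left of TSPAN8-low (blue). Bars of level are similar in height, while from 2050 to 2066 bp the reads number 21 to 26 in TSPAN8-high cells and 6 to 8 in TSPAN8-low.

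By the same stratified test no exon window, promoter or tile of the cluster was called, where 0.361% of exon windows, 0.327% of promoters and 0.316% of tiles were. Pcdhga4 had the lowest adjusted p, 0.0486 (exact test stratified by cytosine, Benjamini-Hochberg adjustment), and its within-cytosine difference of -8.67 points stayed under the minimum of 10. Its pooled levels were 12.5% of 360 reads in TSPAN8-high cells and 20.4% of 260 reads in TSPAN8-low (-7.88 points, -14.0 to -2.02, adjusted p 0.132 by Fisher's exact test). The difference lay in the first part, with 6.25% in TSPAN8-high cells and 17.2% in TSPAN8-low, while both cytosines of the last part were at 100%. Of the 27 cytosines of the first part, 13 were lower in TSPAN8-high, 5 were higher and 9 were equal. Neighbours on a strand often had the same read numbers, such as 16 in TSPAN8-high cells and 6 in TSPAN8-low. The 27 are therefore not independent. With the exon window ended at 1500 bp, which keeps these 27, Pcdhga4 was called (-10.95 points, adjusted p 0.00640 by Fisher's exact test with Benjamini-Hochberg adjustment) and Pcdhga9 was not. Compared within cytosines over that window, Pcdhga4 differed by -9.12 points (adjusted p 0.0450, stratified exact test), again under the minimum. With 1 CpG kept per 100 bp the sign turned, with 23.1% in TSPAN8-high cells and 19.4% in TSPAN8-low (3.63 points, 5 CpGs). With at least 10 reads per cytosine the difference was -19.0 points at 3 CpGs (adjusted p 0.0616 by Fisher's exact test), and Pcdhga4 was not called.

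The other large pooled differences among exons did not pass either test. Pcdhgc4 had 33.3% in TSPAN8-high cells and 22.3% in TSPAN8-low (11.0 points, 2.06 to 19.8, adjusted p 0.178 by Fisher's exact test), and 6.31 points within cytosines. Pcdhgc5 had 55.2% in TSPAN8-high cells and 61.1% in TSPAN8-low (-5.91 points, -13.7 to 2.03), and -1.47 within cytosines. Pcdhga3 had 6.78% in TSPAN8-high cells and 3.57% in TSPAN8-low (3.22 points, 0.837 to 5.57), and 3.35 within cytosines. Pcdhgc3 differed by -0.124 points (-1.83 to 1.39). The interval left out 0 at 7 exons, 6 of them higher in TSPAN8-high cells and 1 lower. This count was not made over all exon windows, so it has no share to stand beside. The 6 include Pcdhga9, with 0.379 points within cytosines, and Pcdhgb7, whose interval began at 0.00249.

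**Figure D5:**
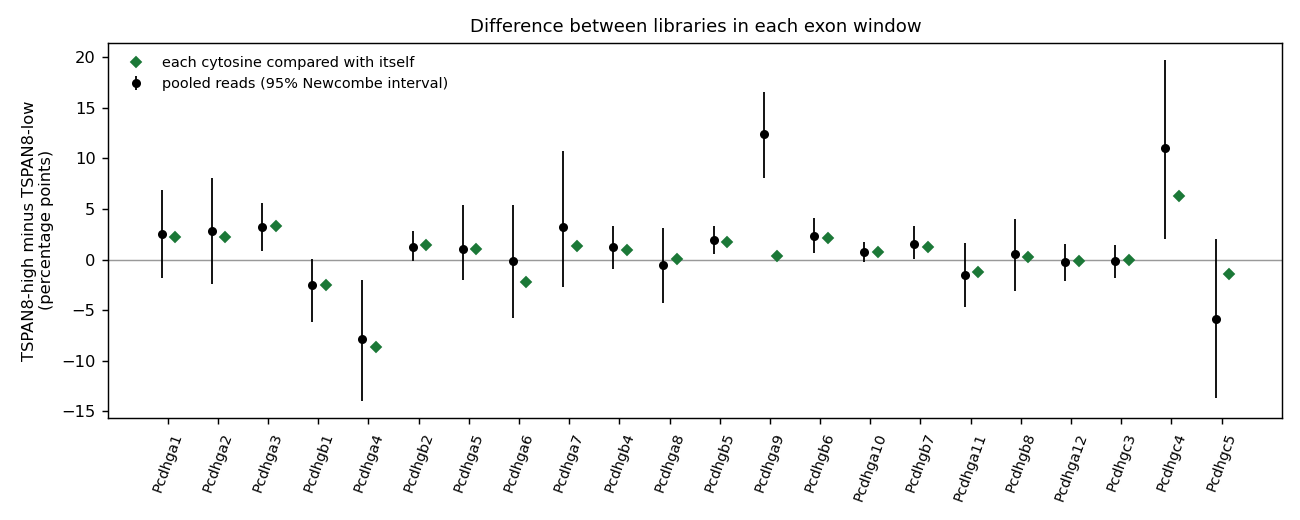
Difference in level, TSPAN8-high minus TSPAN8-low in percentage points, in the exon window of each of the 22 genes. Black points are pooled reads with 95% Newcombe intervals (counting error only) and green diamonds compare each cytosine with itself. The 2 measures part most at Pcdhga9, with 12.4 and 0.379 points.

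Small differences in the low exons leaned to TSPAN8-high. Of the 14 exon windows with a mean level below 10%, 10 were higher in TSPAN8-high, with a median difference of 1.15 points, against 45.1% of 6335 such windows of all genes and a median of -0.0842. In the Pcdhgb exons together the level was 3.15% in TSPAN8-high cells and 1.71% in TSPAN8-low (1.44 points, 0.773 to 2.12), 1.24 points within cytosines, and 6 of 7 genes were higher in TSPAN8-high. None of these 7 exons was called. Pcdhga exons together differed by 2.03 points pooled (0.924 to 3.13) but 0.214 within cytosines.

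By class, the difference was -0.762 points in promoters (-2.13 to 0.599), 1.58 in variable exons (0.823 to 2.33), -3.30 in the constant segment (-7.21 to 0.633) and 1.91 in the remainder (0.0399 to 3.77). Within cytosines these were -0.251, 0.660, 0.961 and -0.167 points. The sign in the constant segment and in the remainder thus depended on how reads were weighted.

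Outside the called tile, the largest differences among the cluster's tiles with at least 3 CpGs did not pass the test. Higher in TSPAN8-high were the tile from 37816001 in the Pcdhgc4 exon (47.6% against 25.9% in TSPAN8-low), the one from 37805001 just before Pcdhgc3 (21.6% against 5.43%), the one from 37652001 before the array (96.7% against 83.7%) and the one from 37765001 at the start of Pcdhga12 (92.9% against 82.7%). Lower in TSPAN8-high were the tile from 37814001 before Pcdhgc4 (13.1% against 26.0% in TSPAN8-low), the one from 37841001 at the shared end (26.9% against 37.2%), the one from 37686001 in the Pcdhga4 exon (13.1% against 20.9%), the one from 37791001 in the long spacer (92.9% against 100%) and the one from 37824001 in the constant segment (64.3% against 70.9%). The lowest adjusted p among these 9 was 0.173 by Fisher's exact test, at the tile from 37805001.

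Genes known to act on protocadherin promoters were read in the same libraries. Of 19 listed (CTCF, cohesin and its loader and release factor, silencing factors, DNA methyltransferases and TET enzymes), 16 had a promoter window with at least 3 CpGs, and 0 were called in either direction, where 0.327% of all promoter windows were. The median difference was 0 points, as over all promoters tested, and 13 windows were below 5% in both libraries. The most reads were at Rest, a repressor of neuronal genes, with 2.25% in TSPAN8-high cells and 0 of 304 reads in TSPAN8-low (up to 0.987%), and at Smchd1, a silencing factor of the mouse protocadherin arrays, with 0.909% and 0.987%. Windows at Rad21 and Nipbl, methylated in both libraries, lay at gene ends of unknown strand and may not be the starts.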

How the data were processed

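The analysis used the authors' deposited table, with 1 line per cytosine of a CpG and strand for 1 RRBS library per fraction. The deposited methylation level is a fraction rounded to 2 decimals, and the deposited coverage columns hold read counts of at least 5. The deposited difference (unit other) is TSPAN8-high minus TSPAN8-low. The deposited p-value equalled that of a two-sided Fisher's exact test, with a relative tolerance of 0.001, for 93.6% of the cytosines. Per the submitters' processing notes, Bowtie, SICER, mm9 and mm10 were used, with no role given. All 232506 listed cytosines inside RefSeq promoter sequences of GRCm38.p6 (mm10) are C on their strand.

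Methylated reads are the coverage multiplied by the level, rounded to whole reads. Fisher's exact tests were run on reads per cytosine and on pooled reads per tile, promoter and exon window, over the whole table, with Benjamini-Hochberg adjustment over all features of a kind. Strands came from the promoter sequences. Genes without one entered at both ends, and clustered protocadherins were taken to run toward higher coordinates. A second exact test, stratified by cytosine with a Mantel-Haenszel difference, was added after seeing the data. Both were run on simulated data in which each cytosine was drawn independently, unlike real reads over several CpGs. Where the cytosines of a simulated tile had their own levels, no limit on false calls was set for the pooled test. Python 3.11.15, numpy 2.4.6, scipy 1.17.1 and pandas 2.3.3 were used. Intervals are Clopper-Pearson for levels and Newcombe for differences, at 95%, and a count of 0 allows 3 counts. They cover counting error only, since a read over several CpGs counts at each and reads carry no molecular identifiers. Pooled and stratified p-values of windows are too small for the same reason, and neighbouring cytosines counted by direction are not independent.

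Values are given for all 22 genes in groups, and in full for the 5 promoters and 5 exons with the largest absolute differences, the Pcdhgc genes, called features, the 5 tiles of largest rise and 5 of largest fall, and the listed factors with the most reads. Single cytosines of Pcdhga4, Pcdhga7, Pcdhga9 and Pcdhga12 and the family contrast were picked after their values were seen. Members, lists and tests were chosen with earlier results of these data known. No sequence is shown.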

Additional observations from a re-analysis of the deposited data

How the results depend on the processing

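No paired analysis was possible because each fraction had 1 library with no replicate number, so leaving out a replicate was not possible either. The calls of the tile and of the Pcdhga9 exon (1 each) both became 0 with at least 10 reads, with at least 20 reads, with 1 CpG kept per 100 bp, and with each cytosine compared with itself. The exon call also became 0 with a minimum of 20 points, which exceeds its difference. With 1 CpG kept per 100 bp the calls were lost, but the pooled differences were larger. They were 21.7 points at the exon (adjusted p 0.0738) and 39.8 at the tile (adjusted p 0.431), both by Fisher's exact test. With an exon to 1500 bp 1 exon was still called, but it was Pcdhga4 (adjusted p 0.00640, Fisher's exact test) and not Pcdhga9, and with each cytosine compared with itself over that window the count was 0. No cytosine or promoter was called under any setting run. With at least 10 reads, the class difference was 0.658 points in variable exons and 4.32 in the remainder. With at least 20 reads it was 6.16 in the constant segment, -0.491 in the remainder and 0.815 in the whole interval. With 1 CpG per 100 bp it was 4.73 in exons, -11.3 in the constant segment and 0.820 in the whole interval. As an unweighted mean over cytosines it was 0.772 in exons, 1.24 in the constant segment and -0.462 in the remainder. With each cytosine compared with itself it was 0.660, 0.961 and -0.167 in those 3. A promoter of 1000 bp gave 0.909 in promoters, and an exon to 1500 bp gave 0.683 in exons. Exon minus promoter was -1.96 in TSPAN8-high cells and -3.10 in TSPAN8-low with at least 10 reads, -9.94 and -11.0 with at least 20, 2.45 and 1.42 unweighted, -6.61 and -7.27 with a promoter of 1000 bp, and 6.39 and 3.68 with one of 250 bp. In TSPAN8-high it was 4.20 with 1 CpG per 100 bp and -0.131 with an exon to 1500 bp. Genes whose exon exceeded the promoter numbered 1 of 3 in each library with at least 20 reads, and 3 of 15 in TSPAN8-high cells and 2 of 15 in TSPAN8-low with a promoter of 1000 bp. Each cytosine in the last part of the Pcdhga9 window had 6 to 9 reads in TSPAN8-low, so stricter read minimums removed that whole part. With at least 10 reads the window was at 1.23% in TSPAN8-high cells and 0.909% in TSPAN8-low. Those minimums therefore could not test its difference. The causes of the other changes were not tested, except that stricter read minimums left 61 and 13 tiles of the 103. Of 59 alternative values of the class differences and of exon minus promoter, 19 had the other sign, including 5 for the whole interval, 3 each for the constant segment and the remainder, 2 for promoters and 0 for variable exons. Depth limited single cytosines most, with medians of 12 (TSPAN8-high) and 11 reads (TSPAN8-low).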
